A study of Saccharomyces cerevisiae with 16 samples.

Results

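The 33 genes described here make, regulate, store and import ergosterol in Saccharomyces cerevisiae. They were chosen by name and matched to array probes through their open reading frame identifiers, and each had 1 probe among the 6256 gene probes of the array. The genes fall into 10 of the early pathway (acetyl-CoA to squalene), 14 of the late pathway (squalene to ergosterol), 4 regulators, 2 importers and 3 genes of sterol esterification and binding. All 33 probes were well above background on all 16 arrays.

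The wine strain Lalvin EC1118 fermented an artificial must at 22 °C in membrane bioreactors. In the mixed fermentations, Dekkera bruxellensis strain ZIM 701, a spoilage yeast of wine, was inoculated into the other chamber, behind a dialysis membrane, while that chamber stayed sterile in the control fermentations. S. cerevisiae RNA came from the exponential phase (22 h), from the early (92 h) and late (144 h) stationary phases, and from declining cultures (187 h, also labelled autolytic), which gave 4 mixed and 4 control groups of 2 one-colour arrays each. Both kinds used the same strain, and nothing other than the inoculation of D. bruxellensis set them apart in the labels.

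Ergosterol is the main sterol of yeast membranes. Its synthesis runs from acetyl-CoA through mevalonate and squalene, and several of the late steps use molecular oxygen and haem, so yeast without oxygen cannot finish the pathway and depends on sterol from the medium. Upc2 and Ecm22 are sterol-sensing transcription factors that act on many of the synthesis genes, and Aus1 and Pdr11 are transporters that bring sterol into the cell.

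Levels below are log2 signals minus the 75th percentile of the same array, so a negative level lies under that percentile and a difference of 1 is a 2-fold difference. Differences carry the standard error of a limma model with 1 mean per group over all arrays (n = 2 per group), and "rose" and "fell" are used where the p-value, adjusted over 6184 probes by Benjamini and Hochberg, was below 0.05. Replicate 1 of every group lay on slide 1 and replicate 2 on slide 2. Mixed arrays lay in 1 row and controls in the other on both slides, with a column for each time, so kind and time cannot be told apart from place on the slide. The labels do not say whether arrays with 1 number came from a single vessel sampled repeatedly, and the p-values measure only the spread between these arrays.

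The growth phases were visible in the arrays. At 92 h against 22 h all 8 stationary phase markers rose (by 1.03 to 6.12 log2), as did 36.2% of all probes. Of 7 markers of exponential growth 6 fell (29.2% of all probes), while the hexose transporter gene HXT3 rose by 0.71. Averaged over the 4 times, 3 of the 7 exponential markers, RPL3, RPS3 and RPL10, were lower in mixed than in control fermentations (5.37% of all probes). The list median was -0.30. Of the 8 stationary markers, HSP12, SPG4 and SPG1 were higher (3.20% of all probes), and the other 5 did not pass. The fitted difference was above 0 for 6 of the 8 and below 0 for 2. The list median was 0.37, with 0.09 on slide 1 and 0.73 on slide 2. The part of this difference in the sterol gene values was not tested.

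With D. bruxellensis across the membrane, 2 of the 33 genes rose on average over the 4 times, and none fell. They were ERG13, which encodes the HMG-CoA synthase of the mevalonate route, and the sterol importer gene AUS1. Among all probes tested, 8.57% were called in this comparison, 3.20% higher and 5.37% lower. With 1 array left out that 8.57% ran from 0.906% to 14.0%. The fitted difference was above 0 for 32 of the 33 genes, against 43.1% of all probes, with a median of 0.19 against -0.03 for all probes. That count was 33 on the scale of the spike-in RNAs and 31 with normexp background correction and quantile normalization together. SUT1 was the exception (-0.08 ± 0.12), and its difference was 0.04 when arrays were scaled to the spike-in RNAs. ERG7 was at 0.06 ± 0.11, and at 0.00 with that background correction and normalization.

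ERG13 stood at 3.85 and 3.60 in the mixed arrays against 3.06 and 2.97 in the controls at 22 h, and 2.17 and 1.45 (mixed) against 1.22 and 0.98 (control) at 92 h. Later it stood at 1.61 and 1.68 in the mixed arrays against 1.06 and 1.05 in the controls at 144 h, and 1.36 and 1.74 (mixed) against 1.14 and 1.19 (control) at 187 h. Both mixed arrays were above both controls at each of the 4 times. The average difference was 0.60 ± 0.11 (1.51-fold, adjusted p = 0.0154 in limma), with 0.63 on slide 1 and 0.57 on slide 2. The call was lost without control replicate 2 at 92 h (0.57, adjusted p = 0.0535 in limma) and when the spike-in RNAs set the scale (0.72, adjusted p = 0.0523). It was also lost in averages without 144 h (adjusted p = 0.0512) or without 187 h (adjusted p = 0.0678).

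AUS1, which encodes an ABC transporter for sterol uptake known from anaerobic growth, stood at 0.90 and 1.56 in the mixed arrays against 0.30 and 1.18 in the controls at 22 h, and 1.07 and 1.73 (mixed) against 0.01 and 0.44 (control) at 92 h. At the later times it stood at -0.16 and 1.19 in the mixed arrays against -0.79 and -0.43 in the controls at 144 h, and -0.43 and 0.78 (mixed) against -1.28 and -0.91 (control) at 187 h. Mixed and control arrays overlapped at 22 h, and both mixed arrays were above both controls at the other times. The average difference was 1.01 ± 0.25 (2.02-fold, adjusted p = 0.0336 in limma), with 0.78 on slide 1 and 1.24 on slide 2. In all 8 groups the slide 2 array was the higher of the pair, by 0.74 on average, a pattern shared by HES1 and by 0.776% of all probes. With the slide as a replicate block the adjusted p was 0.00602 in limma. The call was lost with a block for kind and replicate number (adjusted p = 0.0529), and in 11 of the 16 fits that left out 1 array, where the difference ran from 0.84 to 1.18 and the adjusted p reached 0.0784. Averages without 92 h (adjusted p = 0.0685), 144 h (0.101) or 187 h (0.197) did not pass either. The 5 arrays whose omission kept the call were mixed replicate 1 at 22, 144 and 187 h and control replicate 2 at 22 and 187 h.

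PDR11, the gene for the other importer, stood at -0.25 and -0.33 in the mixed arrays against -0.88 and 0.09 in the controls at 22 h, and 1.68 and 1.62 (mixed) against 1.18 and 1.20 (control) at 92 h. It stood later at 1.38 and 1.59 in the mixed arrays against 0.69 and 1.24 in the controls at 144 h, and 0.94 and 1.07 (mixed) against 0.24 and 0.74 (control) at 187 h. The groups overlapped at 22 h only, and the average difference of 0.40 ± 0.14 did not pass (adjusted p = 0.0931 in limma). With 1 array left out at a time that difference ran from 0.28 to 0.52, the highest without control replicate 2 at 22 h. The mean of the importers' differences was 0.30 at 22 h, 0.82 at 92 h, 0.82 at 144 h and 0.89 at 187 h, all relative to an all-probe median between -0.06 and -0.01.

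**Figure D1:**
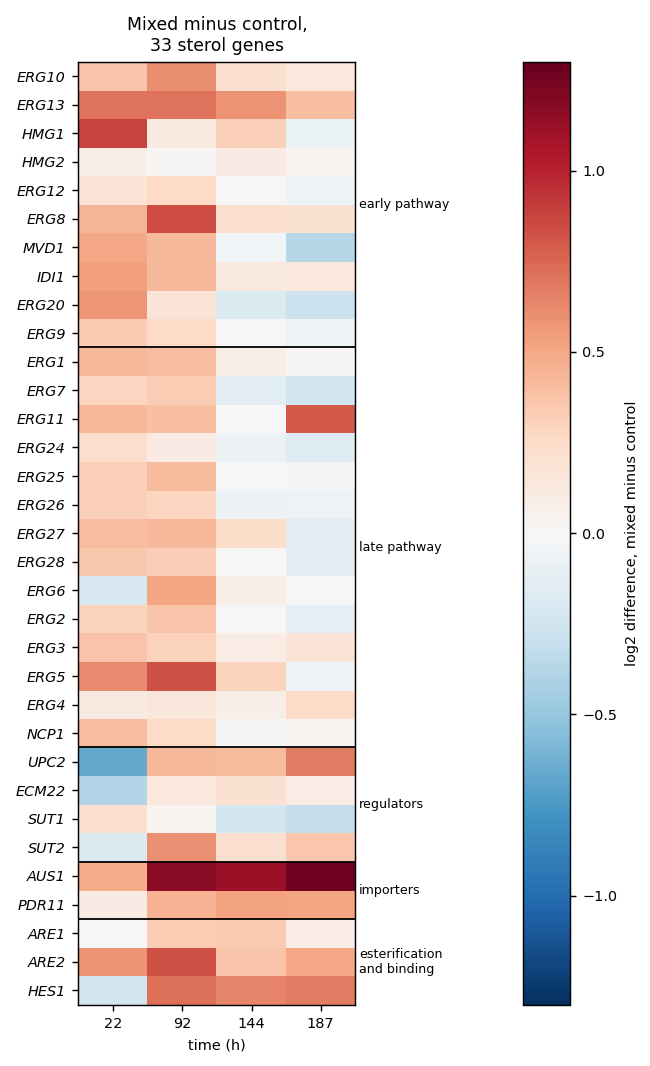
Log2 difference, mixed minus control, for each of the 33 genes (rows, grouped by role) at 22, 92, 144 and 187 h (columns), as fitted group means of 2 arrays each. At 92 h all 33 differences are above 0 (30 on the spike-in scale, 32 with quantile normalization), while at 187 h the pathway genes lie on both sides of 0 and AUS1 is at 1.27. No single cell passed the adjusted threshold.

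At no single time did any of the 33 genes pass. Of all probes, 0.00% were called at 22 h, 0.0162% at 92 h, 0.00% at 144 h and 7.26% at 187 h (2.81% higher and 4.45% lower). At an unadjusted p below 0.05, 8 of the genes differed at 22 h (6.32% of all probes), 10 at 92 h (5.63%), 2 at 144 h (9.17%) and 3 at 187 h (28.9%). With the slide as a replicate block, AUS1 (adjusted p = 0.0275 in limma) and HES1 (adjusted p = 0.0315) passed at 187 h. Without control replicate 2 at 187 h, ERG11 passed there, with a difference of 1.11. That fit kept only the lower of the controls at 187 h (3.50, against 4.13 on the array left out).

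By role, the median of the 10 early pathway genes was 0.47 at 22 h, 0.34 at 92 h, 0.12 at 144 h and -0.01 at 187 h. In the 14 late pathway genes the medians at the same times were 0.33, 0.35, 0.01 and -0.04. Regulators gave medians of -0.28, 0.28, 0.21 and 0.23. No test of a change in the difference between consecutive times, or between 22 h and 187 h, passed for any of the 33 genes, and 0.00% of all probes were called in those tests. At an unadjusted p below 0.05, 4 of the genes passed for the change between 22 h and 92 h (3.38% of all probes), 0 for that between 92 h and 144 h (0.582%), 1 for that between 144 h and 187 h (3.04%) and 5 for that between 22 h and 187 h (16.2%). From 92 h to 144 h the fitted difference became smaller in 28 of the 33 genes, against 58.7% of all probes, with a median change of -0.27. That median was -0.52 without mixed replicate 2 at 92 h, -0.13 without mixed replicate 1 and -0.14 without control replicate 2 at that time. On the spike-in scale, which moved the median change of all probes to 0.16, 12 of the genes had a change above 0.

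Arrays of both kinds were separate for many of the synthesis genes in exponential growth. At 22 h both mixed arrays lay above both controls for 21 of the 33 genes, against 13.2% of all probes. The count was 17 at 92 h against 20.4%, 15 at 144 h against 15.9%, and 12 at 187 h against 21.8%. Only ERG13, ERG8 (phosphomevalonate kinase) and ERG3 (the sterol C-5 desaturase) were separated in this way at all 4 times, as were 1.46% of all probes. In the opposite direction, both mixed arrays lay under both controls for UPC2 at 22 h (21.0% of all probes), for ERG7 and SUT1 at 144 h (25.8%) and for ERG7, ERG20 and ERG24 at 187 h (33.7%).

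At 92 h the median difference of 0.39 leaned on single arrays. It was 0.16 without mixed replicate 1 at that time and 0.19 without control replicate 2, and up to 0.51 without another array. Mixed replicate 1 at 92 h stood above its partner for most of the pathway, as did control replicate 1. ERG8 was at 2.08 on that array and 0.95 on the other, against 0.85 and 0.49 in the controls. ARE2, one of a pair of sterol acyltransferases that make steryl esters, was at -0.09 and -1.51, against -1.21 and -2.05 in the controls.

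The genes with the largest differences at 22 h included HMG1, one of 2 genes for HMG-CoA reductase, the enzyme that sets the pace of the mevalonate route. HMG1 stood at 3.22 and 2.998 in the mixed arrays against 2.50 and 1.97 in the controls at 22 h, and -0.42 and -0.39 (mixed) against -0.23 and -0.81 (control) at 92 h. At the later times HMG1 stood at 1.32 and 1.15 in the mixed arrays against 0.90 and 0.96 in the controls at 144 h, and 0.98 and 0.99 (mixed) against 0.92 and 1.24 (control) at 187 h. Both mixed arrays were above the controls at 22 h and 144 h, and the groups overlapped at 92 h and 187 h. The difference at 22 h was 0.88 ± 0.21 (adjusted p = 0.558 in limma) and the average was 0.30 ± 0.11 (adjusted p = 0.0931). With 1 array left out at a time the average ran from 0.23 to 0.37.

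HMG2, the gene for the second reductase, stood at 2.11 and 1.75 in the mixed arrays against 1.72 and 1.99 in the controls at 22 h, and 1.77 and 2.02 (mixed) against 1.87 and 1.90 (control) at 92 h. It was later at 1.70 and 1.82 in the mixed arrays against 1.52 and 1.79 in the controls at 144 h, and 1.48 and 1.55 (mixed) against 1.40 and 1.54 (control) at 187 h. Its groups overlapped at all 4 times, and the average difference was 0.06 ± 0.08 (adjusted p = 0.669 in limma). Its group means covered only 0.46 log2 units, the narrowest span of the 33 genes, whereas those of HMG1 covered 3.63, the widest. The 7 early pathway genes other than ERG13, HMG1 and HMG2 had average differences between 0.07 ± 0.10 (ERG20) and 0.43 ± 0.14 (ERG8), and none passed. Without mixed replicate 2 at 92 h ERG8 (0.57) and ERG10 (0.46) did, and without any other single array they did not.

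**Figure D2:**
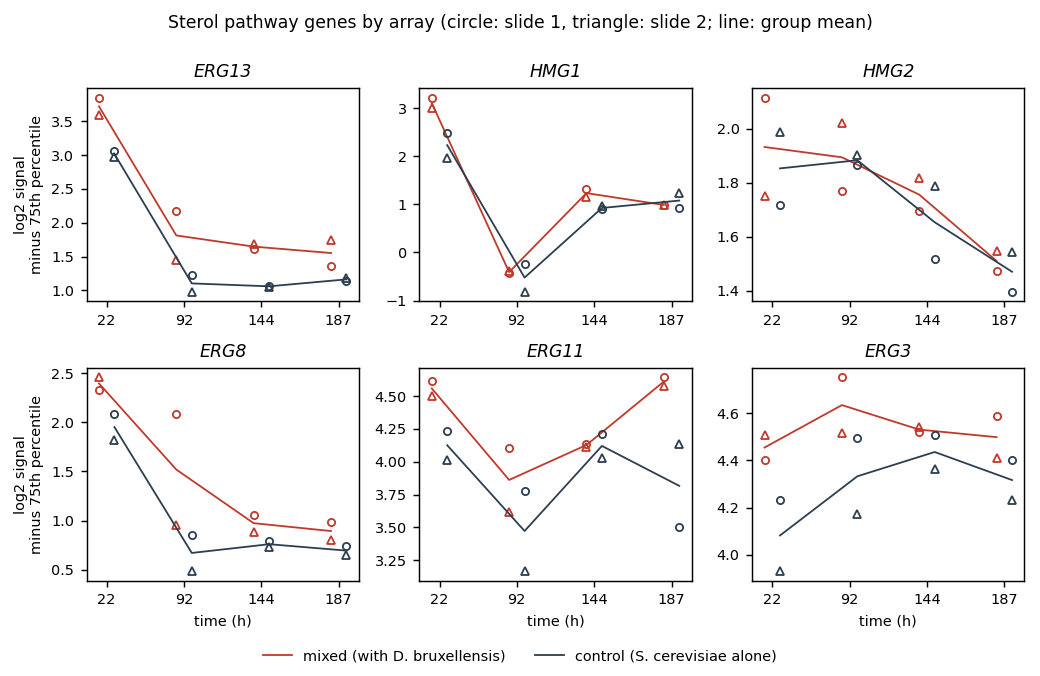
Levels of 6 synthesis genes by time, as log2 signal minus the 75th percentile of the array; circles are slide 1, triangles slide 2, lines group means, red mixed and dark control. ERG13 and ERG3 have both mixed arrays above both controls at each time, and HMG1 has its lowest levels at 92 h, at -0.42 and -0.39 in mixed and -0.23 and -0.81 in control arrays.

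In the late pathway no gene passed on average. ERG11, which encodes lanosterol 14-alpha-demethylase, the target of azole drugs, was at 4.64 and 4.58 in the mixed arrays against 3.50 and 4.13 in the controls at 187 h. Its difference there was 0.79 ± 0.24 (adjusted p = 0.0672 in limma), the largest of the late pathway at that time. On average ERG11 differed by 0.41 ± 0.12, which did not pass (adjusted p = 0.0619). Of the fits that left out 1 array, it passed only without control replicate 2 at 187 h (0.48) or control replicate 1 at 92 h (0.48). ERG3 was at 4.40 and 4.51 in the mixed arrays against 4.23 and 3.93 in the controls at 22 h, and 4.75 and 4.52 (mixed) against 4.49 and 4.17 (control) at 92 h. Its average difference was 0.24 ± 0.08 (adjusted p = 0.0777), and with the slide as a replicate block the adjusted p was 0.0471. ERG5, the C-22 desaturase gene, had an average difference of 0.42 ± 0.14, which did not pass (adjusted p = 0.0796). Of the fits that left out 1 array, ERG5 passed only without mixed replicate 2 at 92 h (0.52). The remaining late pathway genes had average differences between 0.02 (ERG24) and 0.23 (ERG1 and ERG27).

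Among the regulators, UPC2 stood at -2.32 and -1.66 in the mixed arrays against -1.55 and -1.10 in the controls at 22 h, and -0.07 and 0.39 (mixed) against -0.26 and -0.27 (control) at 92 h. It then stood at 0.41 and 0.05 in the mixed arrays against -0.26 and -0.11 in the controls at 144 h, and 0.54 and 0.52 (mixed) against -0.18 and -0.09 (control) at 187 h. Both mixed arrays were the lower at 22 h and the higher at the 3 later times. The differences were -0.67 ± 0.23 at 22 h, 0.43 ± 0.23 at 92 h, 0.42 ± 0.23 at 144 h and 0.67 ± 0.23 at 187 h, where the adjusted p was 0.0948 in limma. The change from 22 h to 187 h, 1.33 ± 0.33, did not pass (adjusted p = 0.144). The average difference over the 4 times, 0.21 ± 0.12, did not pass (adjusted p = 0.266). Leaving 22 h out of that average, the time with the negative difference, gave 0.50 (adjusted p = 0.0356).

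ECM22, the gene for its paralogue, stood at -1.76 and -1.26 in the mixed arrays against -1.31 and -0.95 in the controls at 22 h, and -1.62 and -1.71 (mixed) against -1.77 and -1.83 (control) at 92 h. It stood at -1.52 and -1.71 in the mixed arrays against -1.79 and -1.85 in the controls at 144 h, and -1.35 and -1.41 (mixed) against -1.62 and -1.35 (control) at 187 h. The groups overlapped at 22 h and 187 h, and the average difference of 0.01 ± 0.09 (adjusted p = 0.933 in limma) turned to -0.03 on slide 2.

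SUT2, which encodes a zinc cluster factor related to the sterol uptake regulator Sut1, stood at -1.25 and -1.55 in the mixed arrays against -1.56 and -0.88 in the controls at 22 h, and -1.92 and -2.17 (mixed) against -2.72 and -2.57 (control) at 92 h. It later stood at -3.09 and -3.21 in the mixed arrays against -3.38 and -3.33 in the controls at 144 h, and -3.40 and -3.35 (mixed) against -3.80 and -3.67 (control) at 187 h. Both mixed arrays were above the controls from 92 h onward, and the groups overlapped at 22 h. The average difference was 0.25 ± 0.10 (adjusted p = 0.131 in limma). With 1 array left out at a time that difference ran from 0.16 to 0.33, the highest without control replicate 2 at 22 h. The average without 22 h was 0.39 and passed (adjusted p = 0.0473 in limma).

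SUT1 stood at -3.69 and -4.02 in the mixed arrays against -4.44 and -3.70 in the controls at 22 h, and -3.999 and -3.99 (mixed) against -4.11 and -3.94 (control) at 92 h. It was at -3.82 and -3.61 in the mixed arrays against -3.60 and -3.35 in the controls at 144 h, and -3.88 and -3.37 (mixed) against -3.13 and -3.49 (control) at 187 h. The groups overlapped at 22 h, 92 h and 187 h, and both mixed arrays were below both controls at 144 h. UPC2, SUT2, AUS1 and PDR11 were among 7 of the 33 genes whose mixed arrays were above the controls at 92, 144 and 187 h alike, as were 5.17% of all probes.

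**Figure D3:**
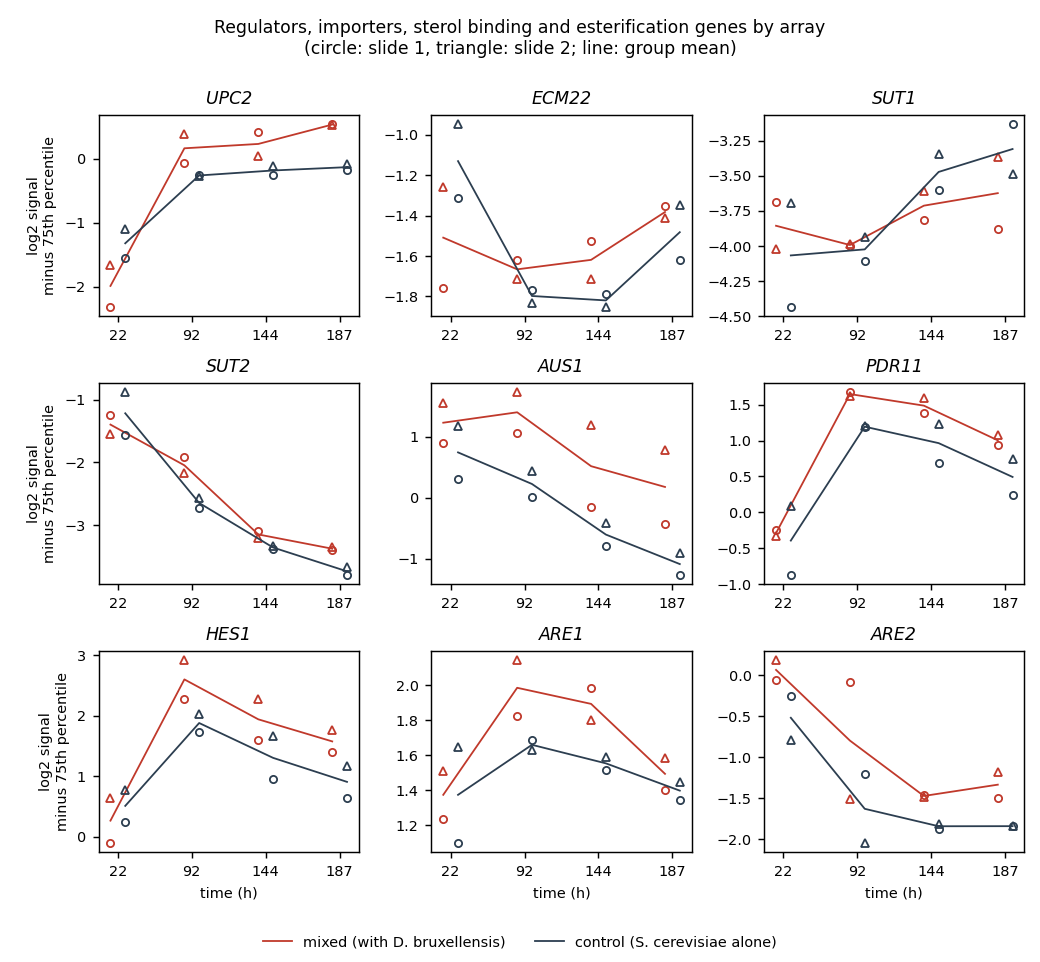
Levels by time of 4 regulators, 2 importers and 3 genes of sterol esterification and binding, as log2 signal minus the 75th percentile of the array; circles are slide 1, triangles slide 2, lines group means, red mixed and dark control. After 22 h the mixed means of every gene shown except SUT1 lie above the control means, and AUS1 and HES1 are higher on slide 2 in all 8 groups.

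The steryl ester genes and HES1 had average differences above 0, and none passed. HES1, which encodes a member of the oxysterol-binding protein family, stood at -0.11 and 0.64 in the mixed arrays against 0.24 and 0.78 in the controls at 22 h, and 2.28 and 2.93 (mixed) against 1.74 and 2.02 (control) at 92 h. Later it was at 1.61 and 2.28 in the mixed arrays against 0.95 and 1.66 in the controls at 144 h, and 1.40 and 1.76 (mixed) against 0.65 and 1.17 (control) at 187 h. Overlap was seen at 22 h and 144 h. The average difference was 0.45 ± 0.18 (adjusted p = 0.133 in limma), and with the slide as a replicate block the adjusted p was 0.00991.

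ARE1, the gene for the acyltransferase known for its role under low oxygen, stood at 1.23 and 1.51 in the mixed arrays against 1.10 and 1.65 in the controls at 22 h, and 1.83 and 2.14 (mixed) against 1.69 and 1.63 (control) at 92 h. It was at 1.98 and 1.80 in the mixed arrays against 1.52 and 1.59 in the controls at 144 h, and 1.40 and 1.58 (mixed) against 1.35 and 1.45 (control) at 187 h. The groups overlapped at 22 h and 187 h, and the average difference of 0.19 ± 0.09 did not pass (adjusted p = 0.206 in limma). ARE2 stood at -0.06 and 0.19 in the mixed arrays against -0.25 and -0.79 in the controls at 22 h, and -1.47 and -1.48 (mixed) against -1.87 and -1.82 (control) at 144 h. At the last sampling it stood at -1.50 and -1.18 in the mixed arrays against -1.84 and -1.84 in the controls at 187 h. Its groups overlapped at 92 h only, and its average difference of 0.57 ± 0.19 did not pass (adjusted p = 0.0839). With 1 array left out at a time that difference ran from 0.40 to 0.75, the highest without mixed replicate 2 at 92 h.

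The step out of exponential growth was tested over both kinds. At 92 h against 22 h, averaged over both kinds, 27 of the 33 genes passed, against 65.4% of all probes. Of these, 23 fell (29.2% of all probes) and 4 rose (36.2%). The median of the 33 genes was -0.61 and that of all probes 0.07. Within the mixed fermentations alone 20 of the 33 genes passed, against 52.8% of all probes, of which 16 fell (23.0% of all probes) and 4 rose (29.8%). Within the controls alone 23 passed, against 51.1%, of which 20 fell (23.3%) and 3 rose (27.7%). Of the falls, 15 were called in both kinds, against 19.8% of all probes.

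Early pathway genes fell in 8 of 10 cases, with a median of -1.01. HMG1 fell the most, by 3.14 ± 0.15 (8.79-fold, adjusted p = 2.54e-08 in limma), to -0.41 at 92 h, against 3.11 at 22 h, in the mixed means and to -0.52, against 2.23, in the control means. ERG13 fell by 1.91 ± 0.15 (adjusted p = 8.53e-07). ERG12, the mevalonate kinase gene, was at -0.60 and -1.18 in the mixed arrays against -1.03 and -1.27 in the controls at 92 h, and 0.15 and 0.34 (mixed) against 0.03 and 0.10 (control) at 22 h, and fell by 1.17 ± 0.15 (adjusted p = 2.89e-05). IDI1, ERG8, ERG10, MVD1 and ERG9 fell by between 0.47 and 1.13. With quantile normalization MVD1 (-0.50, adjusted p = 0.0693) and ERG9 (-0.19, adjusted p = 0.0613) did not pass, and ERG9 did not with normexp background correction and quantile normalization either (-0.20, adjusted p = 0.0583). HMG2 (0.00 ± 0.12) and the farnesyl pyrophosphate synthase gene ERG20 (-0.31 ± 0.14) did not pass.

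In the late pathway 12 of 14 genes fell, with a median of -0.65. ERG6, the sterol C-24 methyltransferase gene, fell by 1.08 ± 0.16, the most of this set. ERG27 (by 1.06), ERG7 (by 1.05) and ERG24 (by 0.92) followed. The calls of ERG26 (-0.17, adjusted p = 0.198 in limma), ERG5 (-0.43, adjusted p = 0.126), ERG4 (-0.32, adjusted p = 0.083) and NCP1 (-0.13, adjusted p = 0.443) were lost with quantile normalization, and those of the same 4 genes with normexp. Of the 27 genes of all roles, 21 remained called with quantile normalization, 22 with normexp and 25 on the spike-in scale. The 25 include ARE1, whose sign turned on that scale. There 23 of the differences, ARE1 included, were more than 1.5 times as large when sign is set aside. ERG28, a scaffold of the demethylation complex, was at -0.11 ± 0.14 and ERG3 at 0.22 ± 0.11, and neither passed.

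The 4 genes that rose lay outside the synthesis steps. HES1 rose by 1.85 ± 0.26 (3.61-fold, adjusted p = 6.17e-05 in limma), PDR11 by 1.76 ± 0.20 (3.39-fold, adjusted p = 1.31e-05) and UPC2 by 1.61 ± 0.17 (3.05-fold, adjusted p = 6.71e-06). ARE1 rose by 0.45 ± 0.13 (adjusted p = 0.0103) and was at -0.72 when the spike-in RNAs set the scale. That scale shifted the median of all probes to -1.09 for this step. On it HES1 rose by 0.69 (adjusted p = 0.0378), while UPC2 (0.44, adjusted p = 0.184) and PDR11 (0.60, adjusted p = 0.0723) did not pass. AUS1 (-0.17 ± 0.35) and SUT1 (-0.05 ± 0.18) were not called, and SUT2, ECM22 and ARE2 fell, by 1.04, 0.41 and 0.99.

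**Figure D4:**
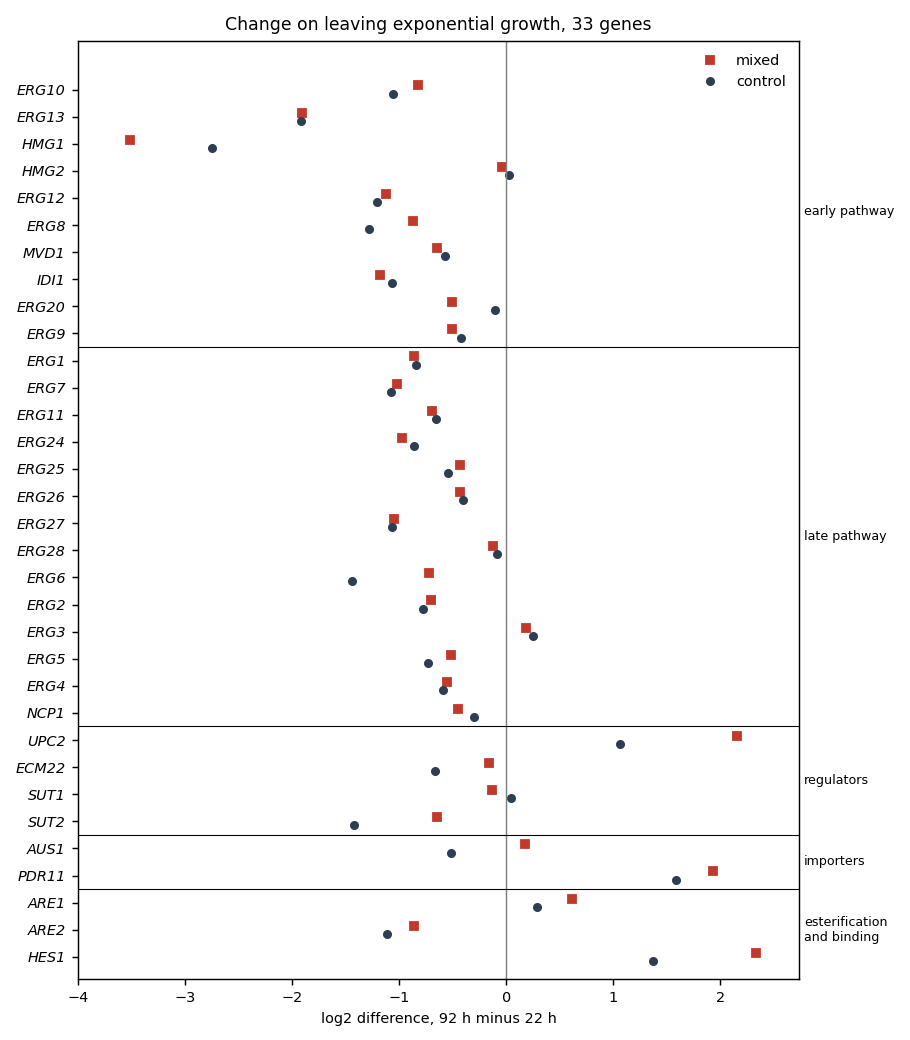
Log2 difference, 92 h minus 22 h, for each gene in mixed fermentations (red squares) and control fermentations (dark circles), grouped by role. Most synthesis genes lie left of 0 in both kinds, with HMG1 at -3.52 in mixed and -2.75 in control, and UPC2, PDR11 and HES1 lie right of 0; ARE1 also lies right of 0 here but not on the spike-in scale.

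Fewer genes passed at the later steps. At 144 h against 92 h, 3 of the 33 genes passed, against 15.4% of all probes (6.34% higher, 9.04% lower). HMG1 rose by 1.55 ± 0.15 (adjusted p = 0.000397 in limma). SUT2 fell by 0.90 ± 0.14 (adjusted p = 0.00318) and ERG6 by 0.70 ± 0.16 (adjusted p = 0.0141). The ERG6 call was lost without control replicate 1 at 144 h (-0.64, adjusted p = 0.068) and on the spike-in scale (-0.997, adjusted p = 0.0725). Within the mixed fermentations alone the same 3 genes passed, against 3.14% of all probes (1.49% higher, 1.65% lower), and within the controls alone only HMG1 did, against 1.13% (0.938% higher, 0.194% lower). With the slide as a replicate block AUS1 (-0.86, adjusted p = 0.00942) and HES1 (-0.62, adjusted p = 0.0039) passed as well. Without mixed replicate 2 at 92 h the count was 6, with ARE2, ERG10 and ERG8 added, and without control replicate 2 at 144 h it was 5, with ERG20 and ERG27 added.

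At 187 h against 144 h, 2 of the 33 genes passed, against 11.3% of all probes (5.81% higher, 5.51% lower). Within the mixed fermentations alone 0 of the 33 genes passed, against 1.81% of all probes (1.42% higher, 0.388% lower), and within the controls alone 0 passed, against 0.0162%. At an unadjusted p below 0.05 these counts were 5 (1438 of the 6184 probes) in mixed and 2 (928 of the 6184 probes) in control fermentations. ERG6 stood at -0.48 and -0.45 in the mixed arrays against -0.41 and -0.51 in the controls at 187 h, and 0.20 and 0.17 (mixed) against -0.02 and 0.22 (control) at 144 h, and fell by 0.60 ± 0.16 (adjusted p = 0.0344 in limma). ERG24, the sterol C-14 reductase gene, stood at -0.71 and -0.68 in the mixed arrays against -0.58 and -0.47 in the controls at 187 h, and -0.28 and -0.10 (mixed) against -0.22 and -0.02 (control) at 144 h, and fell by 0.46 ± 0.11 (adjusted p = 0.031). Omitting 1 array ended the ERG6 call in 9 of 16 fits and the ERG24 call in 6 of 16, with adjusted p up to 0.138 and 0.127. For both genes these were both mixed arrays of 144 h and of 187 h, control replicate 2 at 144 h and control replicate 1 at 187 h. For ERG6 they were also control replicate 2 at 187 h and both controls at 92 h. The differences kept their sign in all of these fits, between -0.66 and -0.54 for ERG6 and between -0.51 and -0.41 for ERG24. With the slide as a replicate block HES1 passed as well (-0.38, adjusted p = 0.0345).

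**Figure D5:**
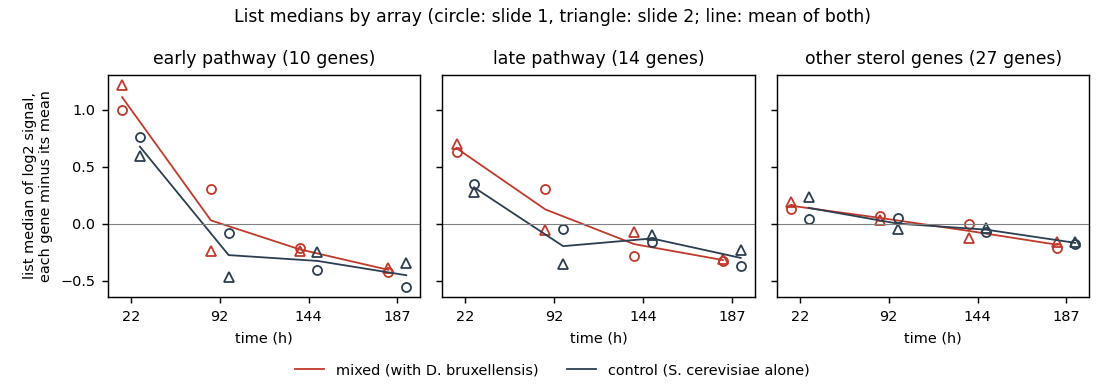
Median over the list of log2 levels centred on each gene's mean over all arrays, by time, for the early pathway, the late pathway and 27 other sterol genes; circles are slide 1, triangles slide 2, lines the mean of both, red mixed and dark control. The pathway medians are highest at 22 h, with both mixed arrays above both controls there. The median of the other sterol genes spans a narrower range, while single genes of that list differed by -1.98 to 1.94 at 92 h against 22 h.

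The list of 27 other sterol genes held pathway helpers, genes of reductase turnover, ester hydrolysis, transport and export, and other users of isoprenoid units. Of these, 1 was higher (3.20% of all probes) and 1 lower (5.37%) on average over the 4 times. DAP1, which encodes a haem-binding helper of Erg11, was higher in mixed fermentations (0.35 ± 0.10, adjusted p = 0.0436 in limma). NSG1, which encodes a stabilizer of Hmg2, was lower (-0.31 ± 0.08, adjusted p = 0.0368). It was lower at 187 h too (-0.71 ± 0.16, adjusted p = 0.0318), as were 4.45% of all probes at that time. The median of the list was 0.00 for that average. At 92 h against 22 h, 7 of the 27 rose (36.2% of all probes) and 10 fell (29.2%), with the sterol-export gene PRY2 down by 1.98 and its relative PRY1 up by 1.94.

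Of 14 genes of haem and oxygen control, 1 was higher in mixed fermentations on average (3.20% of all probes), the cell wall gene TIR3 (0.54 ± 0.13, adjusted p = 0.0318 in limma), and the list median was 0.25. At 187 h SPT23, which encodes an activator of the desaturase gene OLE1, was higher (0.58 ± 0.16, adjusted p = 0.0483), as were 2.81% of all probes. At 92 h against 22 h, 7 of the 14 rose (36.2% of all probes) and 4 fell (29.2%). ROX1, the gene for the haem-dependent repressor of hypoxic genes, fell by 1.72, and HAP1, the gene for the haem-responsive activator, rose by 1.48.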

How the data were processed

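Total RNA of S. cerevisiae was hybridised to 16 one-colour Agilent arrays. Per the file headers, the deposited scanner files hold background-corrected spot intensity values from Feature Extraction 10.7.3.1. The authors' deposited table holds log2 values. Within 0.05, at least 99.6% of the probes in each column equal the log2 processed intensity plus 1 constant for that array (-0.603 to 0.284, and 0 on 4 arrays), and it served only as an alternative. The reason for these constants was not found in the labels or headers.

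Intensities were taken as log2, and 50 spots were marked as outliers. These were left out, except that 3 probe values with both spots marked were kept. The 2 spots of a probe were averaged, and each array's 75th percentile was subtracted. No gene spot was saturated. Probes well above background on at least 2 arrays were kept (6184, with 72 removed). limma 3.58.1 in R 4.3.3 fitted 1 mean per group with 8 residual and 3.26 prior degrees of freedom. The number of arrays limits the precision. The fit was tested on simulated data for the 187 h comparison. It recovered 12 of 50 shifts of 0.5 log2 and 35 of 50 shifts of 1. For shifts of 2 it recovered 49 of 50 and for shifts of 3 it recovered 48 of 50, with 5 false calls. Names came from a RefSeq gene table, which matched 5756 of 6256 probes. The members and lists were chosen with earlier results of these data known. Described in full were the isozymes, regulators, importers, esterification and binding genes, all genes called between kinds, and, among the called genes, the 3 largest changes each way per time step; ERG11, ERG3, ERG8 and ERG5 were added after their values were seen.

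Whether replicate numbers pair mixed and control arrays was checked by the correlation of their deviations from group means over probes, which was -0.469 at 22 h, 0.245 at 92 h, 0.253 at 144 h and 0.108 at 187 h. The numbers match the slide. Promoter motifs were not searched, since no sequence was at hand here.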

Additional observations from a re-analysis of the deposited data

Results flagged for a closer look

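For 3 genes every mixed array lay on one side of the controls at 22 h and on the other side at 187 h. Of all probes, 13.2% had both mixed arrays above both controls at 22 h and 21.0% below. At 187 h these shares were 21.8% and 33.7%. The share of all probes that changed sides was not counted, so whether 3 genes are many is not known. UPC2 differed by 0.67 at 187 h and by -0.67 at 22 h, a change of 1.33 ± 0.33 (adjusted p = 0.144 in limma). For ERG20 the differences were -0.28 at 187 h and 0.57 at 22 h, a change of -0.85 ± 0.28 (adjusted p = 0.20 in limma). The lanosterol synthase gene ERG7 differed by -0.25 at 187 h and by 0.28 at 22 h, a change of -0.53 ± 0.32 (adjusted p = 0.432 in limma). None of these changes passed. Under the other 4 array scalings each difference kept its sign at both times, with UPC2 nearest 0 at 22 h on the spike-in scale (-0.14).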

How the results depend on the processing

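Of 16 single arrays left out in turn, with the lone array of a group assumed to vary like the other groups, the count of sterol genes called on the average over times ran from 0 to 5, that at 187 h from 0 to 1, that for 144 h minus 92 h from 2 to 6 and that for 187 h minus 144 h from 0 to 2. The share of all probes called at 187 h ran from 0.00% to 9.31%, that for 144 h minus 92 h from 4.06% to 17.8% and that for 187 h minus 144 h from 1.37% to 11.1%. The median difference at 92 h ran from 0.16 to 0.51, that for 92 h minus 22 h from -0.80 to -0.45, the change of the difference between 22 h and 92 h from -0.19 to 0.26 and that between 92 h and 144 h from -0.52 to -0.13. ECM22 ran from -0.049 to 0.077 and SUT1 from -0.17 to 0.014 on the average. That average gave 4 calls with median scaling (ERG11 and ERG3 added), 1 with spike-in scaling, 1 with the vessel block, 4 without 22 h, 1 without 92 h, 0 without 144 h and 0 without 187 h.

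With the replicate block, where the number is the slide, there were 4 calls on the average, 2 at 187 h and 5 for 144 h minus 92 h. With the 22 h control numbers crossed, an alternative chosen after seeing the data, the counts were 2 on the average, 0 at each single time, 27 for 92 h minus 22 h, 4 for 144 h minus 92 h and 2 for 187 h minus 144 h. The step 144 h minus 92 h gave 5 calls with normexp. The step 187 h minus 144 h gave 0 with median scaling, 0 with spike-in scaling and 1 when only the times compared were fitted. For these scalings, blocks and averages the share of all probes called is not given here. The counts therefore do not show whether sterol genes gained or lost calls more than other probes did.

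Spike-in scaling moved the median of all probes to 0.50 at 22 h, -0.12 at 92 h, -1.09 for 92 h minus 22 h, -0.36 for 144 h minus 92 h and -0.32 for 187 h minus 144 h. The median of the 33 genes was then 0.87 at 22 h, -1.78, -0.45 and -0.44 for the steps, and -0.61 and -0.076 for the change of the difference between 22 h and 92 h and between 92 h and 144 h. At 22 h it was 0.21 with normexp and 0.21 with quantile normalization, which both gave 0.17 for the change between 22 h and 92 h. On slide 1 alone the medians were -0.44 for 92 h minus 22 h and -0.36 for 144 h minus 92 h, and on slide 2 alone -0.87 and 0.024.

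Signs turned for averages near 0. ECM22 was at -0.03 on slide 2, -0.026 without 92 h, -0.049 without 144 h and -0.015 without 187 h. HMG2 was at -0.022 on slide 2. SUT1 was at 0.043 with spike-in scaling and 0.001 without 187 h. For each of these shifts the cause was not tested. The promoter motif search and its shorter motif were not run. With 2 arrays a group, small differences at single times could not be told from the spread. Larger ones did not pass either in the model with 1 mean per group, such as that of AUS1 at 187 h (1.27). All 33 probes were well above background on every array.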
